A study of Mus musculus with 2 samples.

Results

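Genes that answer to FGF signalling through the kinase ERK were examined in the posterior part of mouse embryos at 13 somites. They were taken as a list of 10 genes: the phosphatases Dusp4, Dusp5 and Dusp6, the Sprouty genes Spry1, Spry2 and Spry4, the Spred genes Spred1 and Spred2, and the ETS factor genes Etv4 and Etv5. The list, and the contrast of Dusp4 with the rest, were chosen with earlier results of the same arrays known, so the ratios below are a description and no test is made on them. Probes matched 9 of the 10 genes, all 9 were well above background in both pools on both arrays, and no probe matched Dusp5, whose level was not analysed here. They are 9 of 25853 genes detected on the arrays.

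The mutant RNA came from Cdx2+/-Cdx4-/- embryos, which carry 1 intact copy of Cdx2 and none of Cdx4, and it was set against RNA from wildtype embryos of the same stage. Each genotype was represented by tissue of 7 embryos, cut behind the last somite border and pooled. The labels do not say how either allele was made. Both pools were hybridised to a pair of dual-colour arrays with the dyes exchanged, the mutant in Cy5 on replicate 1 and in Cy3 on replicate 2. With 1 pool per genotype there is no biological replicate, no p-value between genotypes can be given, and each SD below is that of 2 arrays and is technical.

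FGF ligands bind receptor tyrosine kinases and, through Ras, Raf and MEK, activate ERK, which enters the nucleus and switches on target genes. Several of these targets feed back on the pathway: Dusp phosphatases remove phosphate from ERK and related kinases, and Sprouty and Spred proteins dampen the signal upstream, at or near Ras. In the tailbud and presomitic mesoderm, where Fgf8 is made, transcripts of such feedback genes and of Etv4 and Etv5 are commonly used as readouts of FGF activity.

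Across the arrays, between 77.4% and 82.5% of the 41174 gene spots were well above background in a channel. Over all detected genes the SD between arrays was 0.19 on the log2 scale, and the median log2 ratio of mutant over wildtype was 0.01 on replicate 1 and -0.02 on replicate 2. The log2 ratios of the 2 arrays were nearly unrelated over these genes, with a Pearson correlation of 0.07. Cdx4 had a log2 ratio of -2.52 ± 0.12 and Cdx2 of -0.05 ± 0.09 (SD of 2 arrays each). Neither value can be placed against the altered stretch of its allele, which the labels do not describe. All 11 listed markers of tailbud and presomitic mesoderm were detected. A gene was counted as changed when its ratio was 1.5-fold or more in the same direction on each array, a log2 ratio of 0.58. By that rule 0.232% of detected genes were lower in the mutant pool and 0.209% were higher, so that 47.4% of the genes past the rule were higher, against 62.8% when the arrays were median-centred in place of loess. By the ratio of 1 array alone, the share was 19.6% on replicate 1 and 67.1% on replicate 2.

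Dusp4 was lower in the mutant pool, and none of the other 8 detected genes passed the size rule in either direction. Dusp4 encodes a phosphatase of the nucleus that acts on ERK and on the stress kinases, and its transcription is induced by ERK itself. Its level was 1.79-fold lower in mutant tissue, while the other 8 genes had mean log2 ratios between -0.08 and 0.37. The 1 gene of 9 that passed stands beside a background of 0.441% of detected genes past the rule in either direction, from which nothing is read, since the genes were chosen on this contrast. In bulk tissue, fewer cells that make a transcript and less of it per cell cannot be told apart.

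**Figure D1:**
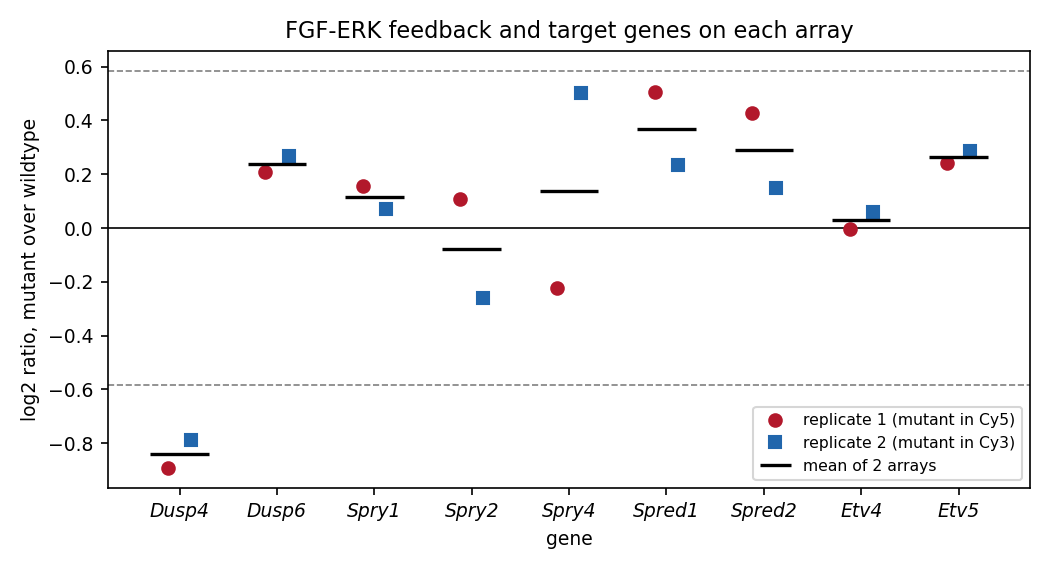
Log2 ratio of mutant over wildtype for the 9 detected genes, with a circle for replicate 1 (mutant in Cy5), a square for replicate 2 (mutant in Cy3), a bar for their mean and dashed lines at 1.5-fold. Dusp4 lies below the lower dashed line on both arrays, and the other 8 genes lie between the dashed lines on both.

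The spot for Dusp4 had a brightness of 1483 in the mutant channel and 1616 in the wildtype channel on replicate 1, before any correction. On replicate 2 it had 957 in the mutant channel and 3143 in the wildtype channel. Both dyes differed at this brightness: among the 1000 genes closest to Dusp4 in brightness, the median uncorrected log2 ratio of mutant over wildtype was 0.77 on replicate 1 and -0.94 on replicate 2, with Cy5 the brighter dye on both. After loess, which removes this dependence on dye and brightness within each array, the log2 brightness of Dusp4 was 10.11 and 10.32 in the mutant pool against 11.01 and 11.11 in the wildtype pool. The mutant value lay below the wildtype value on each array.

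Dusp4 had log2 ratios of -0.89 and -0.79 on replicates 1 and 2, a mean of -0.84 ± 0.07 (SD of 2 arrays). Genes of its brightness had an SD between arrays of 0.15, so the ratio was several times the technical spread on both dye orientations. By mean ratio it stood at place 22 from the bottom of the 25853 detected genes. Of the 1000 genes nearest in brightness, 7 were lower and 2 were higher by the size rule. The scanner software's own error model gave Dusp4 a p-value of 1.72e-07 on replicate 1 and 3.85e-06 on replicate 2, which covers technical error of a spot and is no test between genotypes. Among the 12 probes of the list it was the 1 with a software p-value under 0.01 on both arrays, a level that 0.731% of detected genes reached with the same direction on each. With median centring in place of loess, which leaves the brightness-dependent dye effect in each array, the Dusp4 ratio was -0.41 and -1.44, and it no longer passed the rule on replicate 1.

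A single probe measured Dusp4, at chr8:33781001-33781060 in the coordinates of the files, whose genome build they do not name. The probe was tied to Dusp4 by its symbol in the files and not by a RefSeq transcript, and it lies on the chromosome that RefSeq gives for the gene. No second probe bears on the value. Whether the position is exonic, or in which part of the transcript, could not be read without the build.

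**Figure D2:**
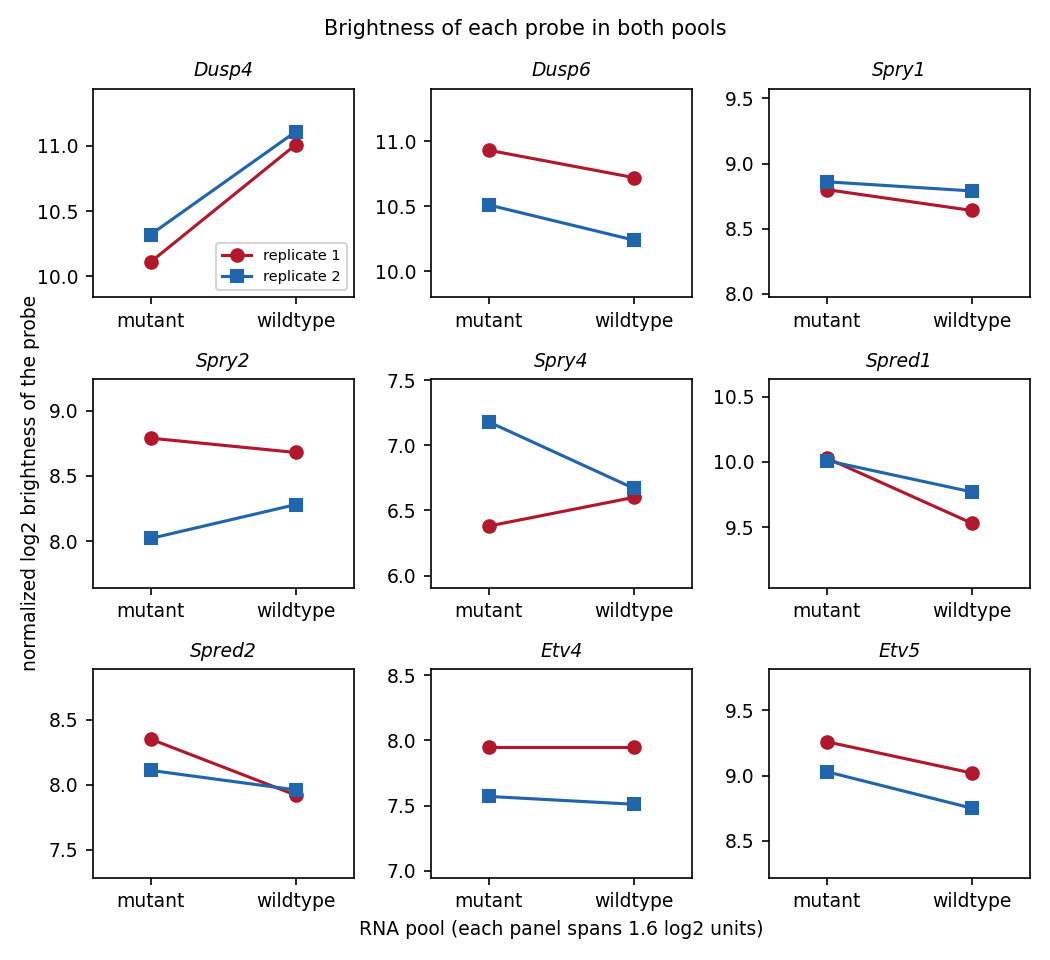
Normalized log2 brightness of the probe standing for each gene in the mutant pool (left) and the wildtype pool (right), with 1 line per array and 1.6 log2 units in every panel. After loess, both lines climb to the wildtype side for Dusp4, both descend for Dusp6, Spry1, Spred1, Spred2 and Etv5 (with median centring none of these 5 was above 0 on both arrays), the lines run opposite ways for Spry2 and Spry4, and for Etv4 both are nearly flat.

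Dusp6, the other measured phosphatase of the list, had nearly the same brightness as Dusp4 and leaned the other way. Dusp6 encodes a cytoplasmic phosphatase specific for ERK and is a classical feedback target of Fgf8. Its log2 brightness was 10.93 and 10.51 in the mutant pool against 10.72 and 10.24 in the wildtype pool. After loess the mutant value was the higher on each array. Before correction, the spot on replicate 2 read 1092 in the mutant channel and 1727 in the wildtype channel. With median centring the Dusp6 ratio was 0.70 and -0.37. Its log2 ratios were 0.21 and 0.27 on replicates 1 and 2, a mean of 0.24 ± 0.04 (SD of 2 arrays), or 1.18-fold, short of the size rule.

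A dimmer second probe for Dusp6 gave log2 ratios of 0.13 and 0.22, in the same direction. The 2 Dusp6 probes lie at chr10:99048241-99048300 and chr10:99045861-99045920 in the files' coordinates. Dusp4 minus Dusp6 in log2 ratio came to -1.10 and -1.06 on replicates 1 and 2, a mean of -1.08 ± 0.03. That difference was chosen after the values were known and has no test.

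Of the Sprouty genes, whose proteins hold back receptor signalling to Ras, only Spry1 had ratios of the same sign on both arrays after loess. Spry1 had a log2 brightness of 8.80 and 8.86 in the mutant pool and 8.64 and 8.79 in the wildtype pool, and its ratio of 0.11 ± 0.06 was above 0 on both arrays. Spry2 had log2 ratios of 0.11 on replicate 1 and -0.26 on replicate 2, a mean of -0.08 ± 0.26, so the arrays pointed opposite ways. The Spry2 mean lay within its own spread, and a difference was not detectable at this precision.

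Spry4 was the dimmest gene of the list and the least certain. Its spot had a brightness of 124 in the mutant channel and 137 in the wildtype channel on replicate 1, and 172 and 153 on replicate 2, against medians of 91.3 to 113 at negative control spots. Replicate 1 gave a log2 ratio of -0.22 and replicate 2 one of 0.50, a mean of 0.14 ± 0.51. Genes of its brightness had an SD between arrays of 0.22, so Spry4 was more scattered than its neighbours and no direction can be given.

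The Spred genes had the highest mean ratios of the list, though both fell short of the size rule. Spred1 and Spred2 encode membrane proteins that bring neurofibromin, a Ras inactivator, to the plasma membrane. Spred1 had a log2 brightness of 10.03 and 10.01 in the mutant pool against 9.53 and 9.77 in the wildtype pool. The arrays gave log2 ratios of 0.51 (replicate 1) and 0.23 (replicate 2), a mean of 0.37 ± 0.19, or 1.29-fold. A dimmer Spred1 probe gave 0.38 and 0.13, lower on both arrays but in the same direction.

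Spred2 had a log2 brightness of 8.35 and 8.11 in the mutant pool against 7.92 and 7.96 in the wildtype pool. Its log2 ratios were 0.43 (replicate 1) and 0.15 (replicate 2), a mean of 0.29 ± 0.20. Both Spred ratios were larger on replicate 1, where the mutant was in Cy5, and genes of their brightness had an SD between arrays of 0.15. On replicate 2, Spry4 (0.50), Etv5 (0.28) and Dusp6 (0.27) had higher ratios than either Spred gene. The software's p-value on replicate 1 was 0.00199 for the brighter Spred1 probe and 0.00903 for Spred2, and on replicate 2 it was 0.119 for Spred1 and 0.506 for Spred2.

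The windows around the start sites of both Spred genes, from 250 bases before to 50 after, are taken from RefSeq on GRCm38.p6. They are shown because this pair had the highest mean ratios, an order that replicate 2 alone did not give. Letters were searched on both strands for CCGGAA and GGAAGT, cores bound by ETS factors, and for TTTATG, a form of the site bound by Cdx proteins. The first 2 can overlap by their shared GGAA. Capitals mark a match. The Spred1 window at chr2:117120821-117121120, plus strand, holds none of these letters, and the Spred2 window at chr11:19924192-19924491, plus strand, holds 1 match to GGAAGT on the opposite strand.
Spred1: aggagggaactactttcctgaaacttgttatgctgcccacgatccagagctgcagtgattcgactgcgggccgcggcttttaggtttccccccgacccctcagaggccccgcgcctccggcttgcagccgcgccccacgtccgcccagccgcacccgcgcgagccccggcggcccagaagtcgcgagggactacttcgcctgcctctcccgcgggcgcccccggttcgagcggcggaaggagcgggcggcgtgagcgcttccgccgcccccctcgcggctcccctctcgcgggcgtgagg
Spred2: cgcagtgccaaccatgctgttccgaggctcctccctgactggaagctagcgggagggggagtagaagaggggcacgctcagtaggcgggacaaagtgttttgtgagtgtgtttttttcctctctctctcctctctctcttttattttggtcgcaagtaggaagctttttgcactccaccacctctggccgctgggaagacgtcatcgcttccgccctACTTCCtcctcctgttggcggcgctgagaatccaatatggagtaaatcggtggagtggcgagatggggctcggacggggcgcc
Windows were found for 7 of the 10 genes, with 8 windows in all, and none was found for Dusp4, Etv4 or Spry4. Dusp5, which has no level here, supplies 1 of the matches to GGAAGT and 1 of those to TTTATG counted next. CCGGAA was in 1 of the 8, against 14.9% of all 32851 windows, GGAAGT in 3 of the 8, against 23.8%, and TTTATG in 2 of the 8, against 11.9%. A match describes the letters and says nothing of binding.

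Etv4 and Etv5 encode ETS transcription factors of the PEA3 group, which carry the FGF signal on to further genes. Etv4 had a log2 brightness of 7.95 and 7.57 in the mutant pool and 7.95 and 7.51 in the wildtype pool. Its log2 ratios were -0.0028 and 0.06 on replicates 1 and 2, a mean of 0.03 ± 0.04, smaller than its spread. Of the 9 genes, Etv4 had the mean ratio nearest to 0.

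Etv5 had a log2 brightness of 9.26 and 9.03 in the mutant pool and 9.02 and 8.75 in the wildtype pool. After loess the mutant value was the higher on each array. The log2 ratios were 0.24 and 0.28 on replicates 1 and 2, a mean of 0.26 ± 0.03, or 1.20-fold. Before correction, the spot on replicate 2 read 436 in the mutant channel and 616 in the wildtype channel. With median centring the Etv5 ratio was 0.66 and -0.25. A dimmer probe gave 0.02 and 0.08, so the size for Etv5 depended on the probe. The files place both Etv5 probes on chromosome 10, at chr10:71485591-71485650 and chr10:71483579-71483638, while RefSeq places Etv5 on chromosome 16. Their link to Etv5 rests on the symbol in the files, and the Etv5 values are given with that doubt.

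**Figure D3:**
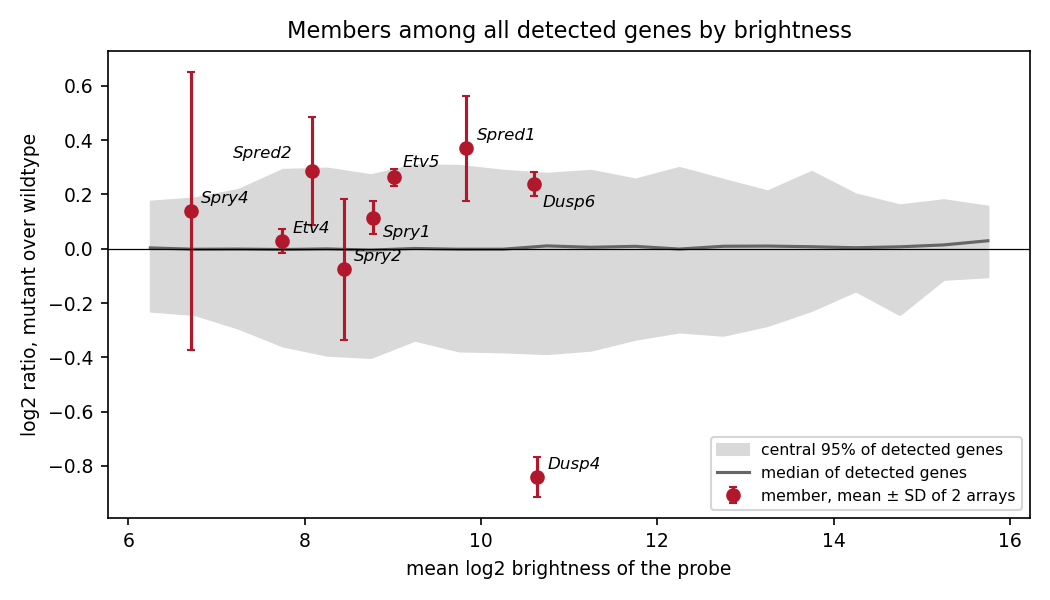
Mean log2 ratio of mutant over wildtype against mean log2 brightness for the 9 genes, with the SD of 2 arrays as bars, over the central 95% (grey) and the median (line) of detected genes in bins of brightness. Dusp4 lies far below the grey band, Spred1 lies above it, and the bar of Spry4 is the widest.

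As a group, the 8 genes other than Dusp4 leaned slightly upward. Of the 8, 5 were above 0 on both arrays (Dusp6, Spry1, Spred1, Spred2 and Etv5), none was below 0 on both, and in the other 3 (Spry2, Spry4 and Etv4, the last at -0.0028 on replicate 1) the arrays had opposite signs. Among all detected genes 23.3% were above 0 on both arrays and 24.4% were below. With median centring 0 of the 8 were above 0 on both arrays, while the means of 7 of the 8 were above 0, as they were with loess. The median log2 ratio of the 8 was 0.19, and 0.00 over all detected genes, and 6 of the 8 lay above the upper quartile of all detected genes, which was 0.06. The list was chosen on these arrays, so the lean is a description of them.

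After loess, Dusp4 stood apart from every other gene of the list on each array, a contrast chosen with earlier results of the same arrays known. The lowest other member on replicate 1 was Spry4 at -0.22, and Dusp4 minus Spry4 was -0.67 in log2 ratio. On replicate 2 the lowest other member was Spry2 at -0.26, and Dusp4 minus Spry2 was -0.53. With median centring, Dusp4 at -0.41 lay close to Spry4 at -0.35 on replicate 1. On replicate 2 it was at -1.44, against -0.70 for Spry2. Set against the median of the other 8, Dusp4 differed by -1.07 on replicate 1 and -0.98 on replicate 2, a mean of -1.03 ± 0.07 in log2 ratio.

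**Figure D4:**
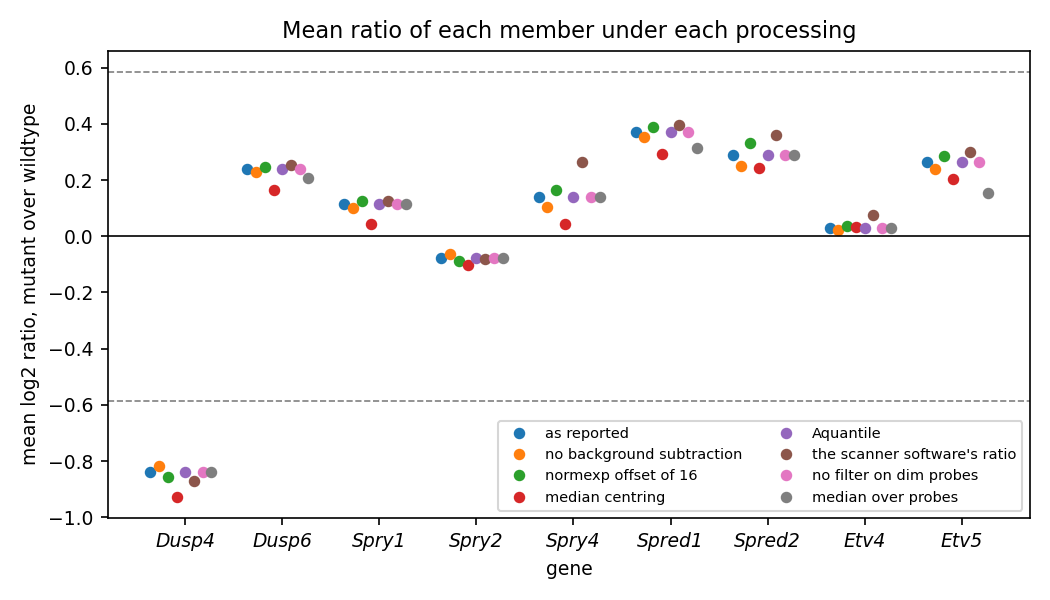
Mean log2 ratio of mutant over wildtype over both arrays for each gene, with 1 point for each way of processing the arrays and dashed lines at 1.5-fold. Dusp4 stays between -0.93 and -0.82, and the other 8 genes stay between the dashed lines with the sign of their mean unchanged.

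The other genes of the pathway were read from 6 lists with 64 entries, of which 57 were detected. Of the 57, 1 was higher by the size rule, Lrig1, and none was lower. Over all detected genes 0.441% passed in either direction. That few or none of a list passed is therefore not read as a result about its genes.

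Lrig1 encodes a membrane protein that restrains receptors of the EGF family and other receptor kinases. It had a log2 brightness of 8.89 and 8.65 in the mutant pool against 7.75 and 7.84 in the wildtype pool. Its log2 ratios were 1.13 and 0.82 on replicates 1 and 2, a mean of 0.98 ± 0.22, or 1.97-fold higher in the mutant pool. A second probe, which overlaps the first at chr6:95064690-95064749 in the files' coordinates, gave 1.09 and 0.86. With median centring Lrig1 had 1.48 and 0.37 and no longer passed the rule on replicate 2.

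The remaining 7 detected feedback inhibitors did not pass, and the list of 8 had a median log2 ratio of 0.06. Fgfrl1, a receptor-like protein without a kinase domain, had 0.31 ± 0.21. Il17rd, also called Sef, which acts at the level of the receptor and MEK, had 0.18 ± 0.20. That probe was tied to Il17rd by a synonym, and a dimmer probe tied to it by a RefSeq transcript gave 0.02 and 0.05. Spry3 and Cbl had no matching probe.

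None of the 6 other detected MAP kinase phosphatases passed the rule, and their median was -0.02. Dusp1, induced by growth factors and stress, had log2 ratios of -0.43 and -0.10 on replicates 1 and 2, a mean of -0.26 ± 0.23, and a dimmer probe gave -0.11 and 0.31. Dusp2, another nuclear phosphatase, had -0.25 ± 0.12, below 0 on both arrays like Dusp4 but far smaller. Dusp9, a cytoplasmic ERK phosphatase, had 0.25 ± 0.18 and leaned the way of Dusp6.

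None of the 12 other ERK targets passed, and their median was -0.02. Etv1, the third member of the PEA3 group, had 0.24 ± 0.07, and Mcl1, a survival gene, had -0.28 ± 0.06. The early response genes Fos, at 0.05 ± 0.02, and Egr1, at 0.18 ± 0.16, were dim and short of the rule.

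Upstream, none of 8 detected FGF ligand genes passed, with a median of 0.25, the highest of the 6 lists. Fgf18 had 0.57 ± 0.14 and Fgf15 had 0.53 ± 0.03, both close to the rule and above 0 on both arrays. Fgf8 itself, the main ligand of the tailbud, had 0.10 ± 0.11, smaller than its spread, and Fgf4 had -0.35 ± 0.01. Fgf8, Fgf4 and Fgf15 were dim, with a log2 brightness of 7.26, 6.91 and 7.11. Over all detected genes the SD between arrays was 0.19, so a small SD from 2 arrays does not make these ratios precise. Of the 4 receptor genes, with a median of 0.08, Fgfr1 had 0.24 ± 0.06 and Fgfr2 had 0.09 ± 0.01.

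The cascade from receptor to ERK had 19 detected genes, none past the rule, with a median of -0.02. Rps6ka3, a kinase activated by ERK, had 0.40 ± 0.02, and Rps6ka1, of the same family, had -0.22 ± 0.13. Transcript levels say nothing of how far ERK was phosphorylated, which was not measured.

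**Figure D5:**
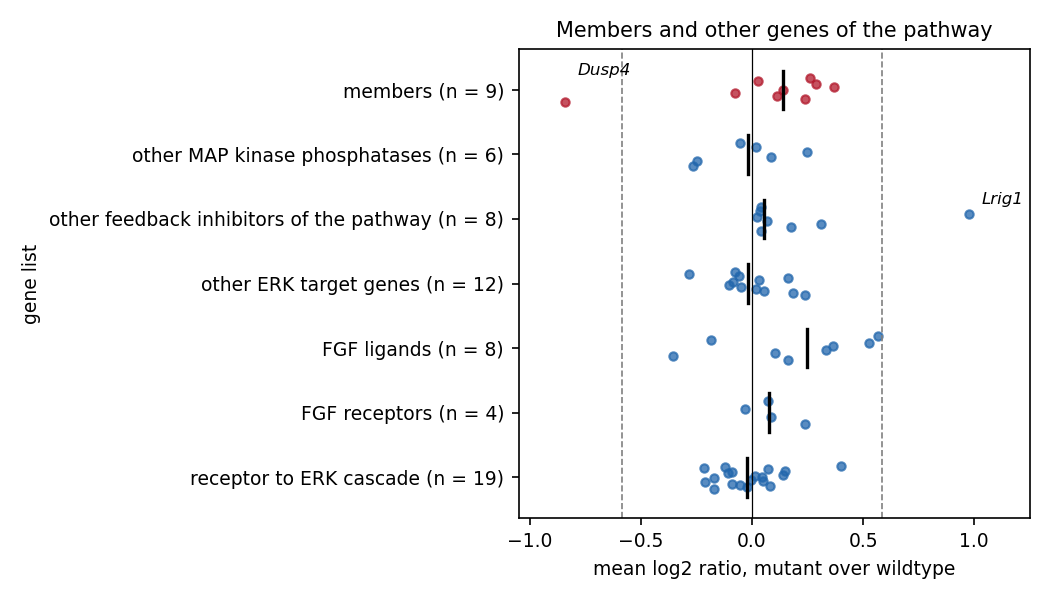
Mean log2 ratio of mutant over wildtype over both arrays for the 9 members (top row) and for 6 lists of other genes of the pathway, with 1 point per gene, a bar at each list's median and dashed lines at 1.5-fold. Dusp4 at -0.84 and Lrig1 at 0.98 are the genes outside the dashed lines.

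Of 60 detected markers of cell types in the dissected region, 8 were higher and 3 were lower by the size rule, and feedback genes are used by many of these cells. Over all detected genes 0.209% were higher and 0.232% lower by the rule, and 24.4% were below 0 on both arrays. The marker lists were chosen with earlier results of these data known. All 16 detected endothelial markers of 17 listed were below 0 on both arrays, with mean log2 ratios from -1.06 (Cldn5) to -0.10 (Eng) and a median of -0.43, and Cldn5 and Sox18 (-0.70 ± 0.08) passed the size rule. With median centring or without background subtraction Cldn5 passed and Sox18 did not. Below 0 on each array were 11 of the 16 with median centring and 15 with the scanner's processed ratio. In the tailbud and presomitic list of 11, the median was 0.00065, with 3 markers above 0 on both arrays and 4 below. Of this list, Cyp26a1 was lower (-1.04 ± 0.08) and Dll1 higher (0.67 ± 0.02) by the size rule. T had -0.49 ± 0.03 and Wnt3a -0.46 ± 0.05. With median centring Dll1 and Sox2 did not pass. In the somite list, 3 of 6 detected markers were higher (Meox1, Tcf15 and Foxc2), and the list's median was 0.83, or 0.22 when 2 markers that were not detected were counted too. In the other lists, 1 of 6 neural tube markers (Sox2) and 3 of 7 gut endoderm markers (Trh, Nepn and Spink1) were higher, with medians of 0.20 and 0.13. The neural tube median was 0.074 without the filter on dim probes and 0.043 on replicate 1 alone, and the gut median was 0.05 with the median over probes and 0.26 on replicate 2 alone. None of 5 notochord and floor plate markers (median 0.03), 4 surface ectoderm markers (0.27) and 5 blood markers (-0.10) passed. The part of these shifts in the ratios of Dusp4 or of the other feedback genes was not tested.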

How the data were processed

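Posterior tissue of embryos at 13 somites was hybridised as 1 pool of 7 embryos per genotype on a pair of dye-swapped arrays; both arrays were treated as 1 comparison, since no separate pools are described. The deposited intensity values are mean spot brightness in Cy3 and Cy5 and the median local background, uncorrected, per the file headers. The deposited log10 values, per the file headers, give Cy5 over Cy3 once the software has detrended the background and normalized the dyes by LOWESS, and the deposited p-value is its error model for a spot. Agilent Feature Extraction is version 9.5.3 per the submitters' processing notes and 7.5.1 per the file headers.

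From the intensities, limma 3.58.1 in R 4.3.3 applied normexp (offset 50) and loess within each array, with control spots at weight 0 and non-uniform spots left out (205 and 90). The offset shrinks the ratios of dim genes; too strong a subtraction enlarges them. For a gene with several probes the brightest detected one was used. A probe counted as detected if the software flagged it well above background in both arrays for 1 genotype or both. Symbols were updated through accessions, symbols and synonyms of a RefSeq table of GRCm38.p6 (19435, 3620 and 2908 probes); 14494 probes kept the files' name and 556 matched several genes and were not named. The normalization was tested on simulated data. The members, lists and rules were chosen with earlier results of these data known. Named from the other pathway lists were genes past the size rule and the 2 largest mean ratios of each list. Il17rd, Dusp9, Fos, Egr1, Fgf4, Fgf8, T, Wnt3a and Eng were named after their values were seen. The number of arrays limits the precision. Alternatives were no background subtraction, an offset of 16, median centring, Aquantile, the software's ratio, no filter on dim probes, the median over probes, each array alone, and other size rules.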

Additional observations from a re-analysis of the deposited data

How the results depend on the processing

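No paired analysis was possible because both pools were on each array, so every ratio is already paired within its array and there is no further pairing to add. The mean ratio of each of the 9 members kept its sign in the 39 combinations of member and alternative, over both arrays, that altered its ratio; another 24, with Aquantile, without the filter on dim probes or with the median over the probes of a gene that has 1, left it as it was and are no check. Where a value below moved, the cause was not tested unless the alternative itself shows it.

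Median centring moved most. The count of members lower by the size rule was 0 with it, against 1, and 0 at 2-fold. Dusp4 was at -0.93, Dusp6 at 0.17, Spry1 at 0.045 and Etv5 at 0.21, and 0 other feedback inhibitors passed. The medians were -0.037 for other ERK targets, 0.04 for receptors and -0.063 for the cascade. With the software's ratio, Dusp4 minus the median of the other members was -1.13, Etv4 was at 0.075 and Etv5 at 0.3, the feedback inhibitor median was 0.14, and the ligand median was 0.43 with 2 ligands past the rule. With an offset of 16 the ligand median was 0.34 with 1 past the rule, without background subtraction it was 0.18, and without a filter on dim probes 0.16. Etv5 was at 0.16 with the median over probes.

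Single arrays keep the dye effect that remains after loess. On them, the median ranged from -0.11 to -0.0044 for other MAP kinase phosphatases, from 0.053 to 0.12 for feedback inhibitors, from -0.017 to -0.0049 for ERK targets and from -0.03 to 0.022 for the cascade, and the ligands past the rule from 0 to 1. Dusp4 passed the rule on each array.

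Over all detected genes, against 54 higher and 60 lower, the lower count was 38 without background subtraction, 91 at the offset of 16 and 94 when the mean of the arrays was used. Higher and lower counts were 27 and 16 after median centring, 166 and 189 from the software's ratio, 20 and 7 at 2-fold, 139 and 194 at 1.3-fold, on replicate 1 alone 92 and 377, and on replicate 2 alone 255 and 125. By direction, 47.4% of calls were higher, against 62.8% with median centring, 74.1% at 2-fold, 19.6% on replicate 1 alone and 67.1% on replicate 2 alone. Signal over background limits Spry4, the Fgf ligands and other dim genes most.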
